A study of Homo sapiens with 6 samples.

Results

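The genes described here encode 5 ADAM proteases (ADAM9, ADAM10, ADAM15, ADAM17 and ADAM19), 2 membrane-type matrix metalloproteases (MMP14 and MMP15) and 3 tissue inhibitors of metalloproteases (TIMP1, TIMP2 and TIMP3). They were taken by symbol from a count table of 23368 gene symbols, and all 10 were found, had reads in every library and passed the filter on low counts that 12489 genes passed, each of the 10 through both groups. HCT116 cells, an established human line from a colon cancer, had been given either siADNP, an siRNA that targets ADNP, or siControl, a control siRNA, and RNA of 3 samples per treatment was sequenced. The labels name no other agent or allele, and no time after treatment. ADNP is a zinc finger and homeodomain protein of chromatin. Samples are described as biological replicates, without saying whether separate cultures were used, so p-values reflect the spread among these 6 samples, which may be technical.

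ADAM proteases are anchored in the cell membrane and cut other membrane proteins close to the surface, a step called shedding that releases growth factor ligands and starts Notch signalling. Membrane-type MMPs act at the same place on collagens and other matrix proteins, and MMP14 together with TIMP2 activates the secreted gelatinase MMP2. TIMPs are small secreted proteins that occupy the catalytic site of zinc-dependent enzymes of these families. Their ranges differ, and not every TIMP inhibits every ADAM or MMP. In colon epithelium and its tumours this system is known for supplying EGF receptor ligands and for remodelling the matrix under invading cells.

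Reads assigned to genes numbered 7396771 to 10265175 per library. ADNP mRNA stood at 46.7, 55.3 and 59.8 CPM with siADNP (CPM is the count scaled to library size, with TMM factors) and at 171, 155 and 167 CPM with siControl, which matches the labels of all 6. Of the 8 markers of colon epithelium, EPCAM, KRT8, KRT18, CDX2 and CDH1 were testable and none was called, KRT20 and CDH17 had 7 to 46 reads over the 6 libraries, and VIL1 was at 0. Of the 8 markers of fibroblasts and smooth muscle, DCN and LUM were at 0 and COL1A2, COL3A1 and PDGFRB had 4 to 10 reads in all. The summed level of those 8 was 14.5 to 19.5 CPM with siADNP and 14.9 to 18.8 CPM with siControl. Within that sum DES rose (1.38 ± 0.298 CPM with siControl and 4.94 ± 1.58 with siADNP, SD, n = 3; edgeR adjusted p = 5.48e-06) and passed the filter on low counts only through the siADNP libraries. ACTA2 fell, from 7.96 ± 1.71 to 3.81 ± 0.431 CPM (adjusted p = 0.000127), and COL1A1 did not pass, at 7.55 ± 0.335 and 8.24 ± 1.70 CPM. The part of these markers in the results below was not tested. The 6 blood cell markers summed to 9.40 to 10.5 CPM with siADNP and 7.11 to 7.62 CPM with siControl, with HBB at 0. Nearly all of that sum was CD68, which was also called higher (log2 fold change 0.42 ± 0.15 (SE), edgeR adjusted p = 0.0366), and its part in the results below was not tested. The RNA is from bulk cultures, in which a change in the number of cells that express a gene and a change in RNA per cell cannot be told apart.

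After ADNP knockdown 5 of the 10 genes rose and 0 fell, with an adjusted p below 0.05 as the threshold (edgeR's quasi-likelihood test, Benjamini-Hochberg adjusted over all 12489 genes). Over all tested genes, 28.3% were called in either direction, 14.6% higher and 13.7% lower. The genes that rose were TIMP2, ADAM19, ADAM15, TIMP3 and MMP15, in the order of their p-values. The median log2 fold change of the 10 was 0.26, against -0.0013 over all tested genes. Because the 10 were chosen with earlier results of these data known, their counts and median are a description. The groups did not overlap in 5 of the 10 (TIMP2, TIMP3, ADAM10, ADAM15 and ADAM19), and they did not overlap in 40.8% of all tested genes. DESeq2's Wald test called 3 of the 10, without TIMP3 and MMP15.

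Promoter sequences from RefSeq (GRCh38.p14) were matched by symbol for 8 of the 10 genes, all but ADAM9 and TIMP2. The 250 bases before the gene start are shown for 3 of the genes that rose, because they lie upstream of the transcripts whose levels moved and differ in composition. Capitals mark each GC box, GGGCGG on either strand, the letters bound by SP1-like factors. The ADAM19 window is chr5:157575776-157576025 on the minus strand, the ADAM15 window chr1:155051066-155051315 on the plus strand and the TIMP3 window chr22:32801455-32801704 on the plus strand, each written 5′ to 3′ on the gene's strand.
ADAM19 promoter: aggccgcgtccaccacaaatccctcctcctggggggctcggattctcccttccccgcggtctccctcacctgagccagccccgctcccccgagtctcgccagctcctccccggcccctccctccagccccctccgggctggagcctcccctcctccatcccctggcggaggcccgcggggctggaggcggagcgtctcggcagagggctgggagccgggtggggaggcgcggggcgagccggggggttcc
ADAM15 promoter: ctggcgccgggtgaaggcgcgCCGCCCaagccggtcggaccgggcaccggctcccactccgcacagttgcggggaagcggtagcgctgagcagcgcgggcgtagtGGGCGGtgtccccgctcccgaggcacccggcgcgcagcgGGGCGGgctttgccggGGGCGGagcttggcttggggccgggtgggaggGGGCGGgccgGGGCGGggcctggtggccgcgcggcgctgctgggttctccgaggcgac
TIMP3 promoter: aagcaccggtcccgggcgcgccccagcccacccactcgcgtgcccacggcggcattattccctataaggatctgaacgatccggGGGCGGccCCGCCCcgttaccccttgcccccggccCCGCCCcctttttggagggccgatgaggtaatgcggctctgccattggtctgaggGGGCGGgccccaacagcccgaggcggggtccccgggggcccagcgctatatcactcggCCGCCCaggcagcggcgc
ADAM15 has 6 matches to the GC box and TIMP3 has 5, while the ADAM19 window has 0. A GC box was found in 7 of the 8 promoters and in 42.6% of 35114 RefSeq promoters of the same length. Those 35114 were not limited to genes expressed in these cells, so they are not a matched comparison for the 8. The median GC content was 73.6% over the 8 and 58.0% over all promoters. The AP-1 motif TGANTCA and the TATA box TATAAA, searched on both strands, had 0 matches among the 8, and were present in 6.6% and 10.7% of all promoters. No overlap of the GC box with the other motifs occurred in these windows, since those had no match. Among genes that rose, the ADAM19, ADAM15, TIMP3 and MMP15 windows had 76.4%, 79.6%, 72.4% and 74.8% GC. The MMP15 window had 5 GC boxes. Among genes that were not called, ADAM17 had 75.6% GC and 3 GC boxes, ADAM10 68.4% and 1, TIMP1 64.8% and 2, and MMP14 56.8% and 1. These matches describe letters in a window and say nothing of binding.

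Per kilobase of the longest annotated transcript, the scale on which genes can be compared, ADAM9 and TIMP1 were the most abundant in siControl libraries, at 90.9 ± 2.23 and 89.4 ± 4.71 CPM per kb (SD, n = 3). These levels overlapped between the libraries, so their order is not resolved. ADAM10 and ADAM19 followed at 17.3 ± 0.512 and 16.9 ± 0.875 CPM per kb and overlapped too. ADAM15, at 13.7 ± 0.235, and TIMP2, at 13.4 ± 0.488 CPM per kb, could likewise not be ordered, and ADAM17 and MMP15 came next at 11.98 ± 0.408 and 10.2 ± 0.318. TIMP3 and MMP14 were the scarcest, at 1.04 ± 0.122 and 0.972 ± 0.225 CPM per kb, with overlapping libraries. With siADNP the TIMP2 level was 25.9 ± 1.98 CPM per kb, above the mean of ADAM10 (18.5 ± 0.823) and of ADAM19 (22.1 ± 0.838). The transcript expressed in these cells may be shorter than the longest annotated one, 11431 bases for ADAM10, and its level per kb would then be higher.

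**Figure D1:**
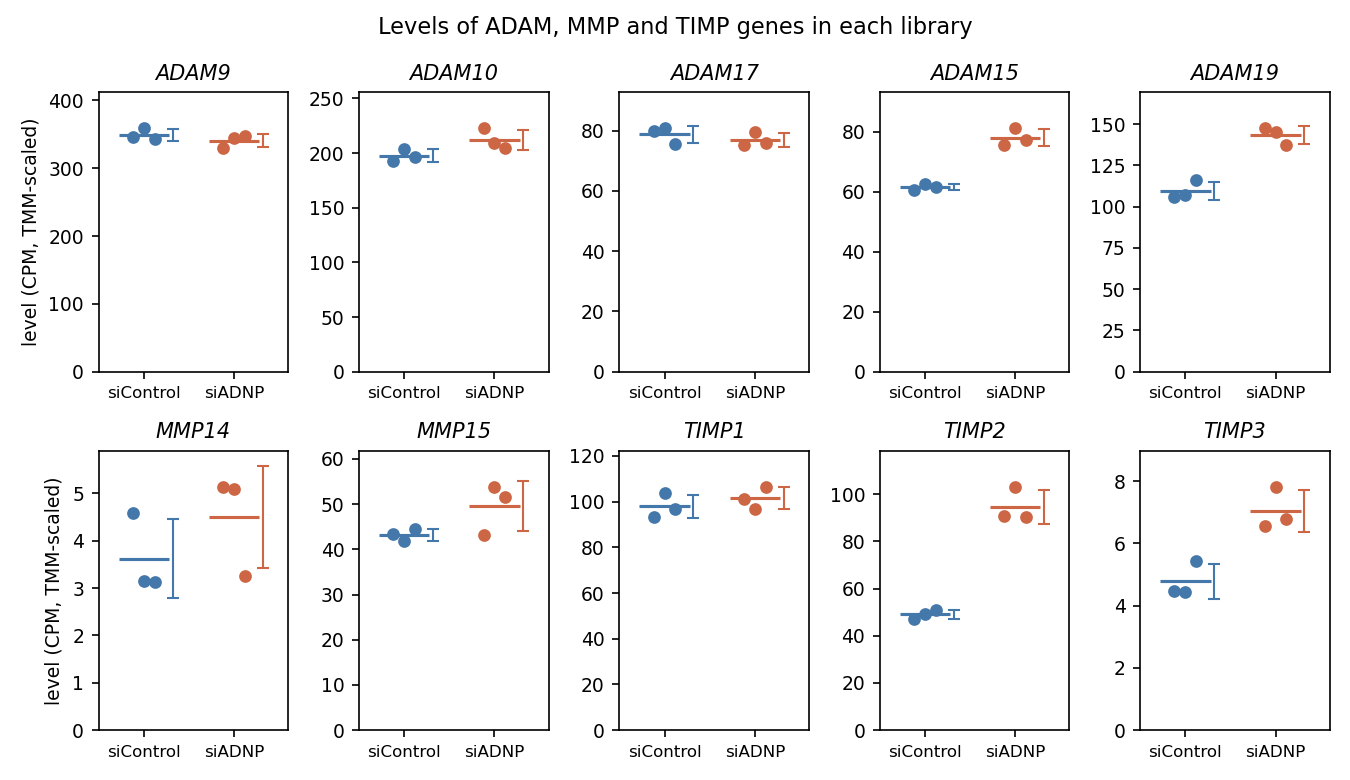
Level of each gene (CPM with TMM scaling, vertical axis from 0) in the 3 siControl (blue) and 3 siADNP (orange) libraries. Points are libraries, horizontal lines are means and bars are SDs. TIMP2 was between 90.2 and 103 CPM with siADNP and between 47.2 and 50.8 CPM with siControl, while the ADAM9, ADAM17 and TIMP1 groups overlapped.

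Among the inhibitors, TIMP2, which blocks many MMPs and pairs with MMP14 on the cell surface, changed most. Its level was 90.9, 103 and 90.2 CPM with siADNP and 47.2, 49.2 and 50.8 CPM with siControl. Every siADNP library was far above every siControl library. The mean went from 49.0 ± 1.78 to 94.7 ± 7.24 CPM (SD, n = 3 each), a 1.94-fold rise (0.95 ± 0.07 on the log2 scale, SE; edgeR adjusted p = 7.14e-14). It ranked 16 by p among 12489 genes.

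TIMP3, which stays bound to the extracellular matrix and is known as the TIMP that inhibits ADAM17, was scarce. Its counts were 51, 69 and 50 reads with siADNP and 40, 45 and 45 reads with siControl, or 6.55, 7.81 and 6.78 CPM against 4.48, 4.43 and 5.43 CPM. All siADNP libraries lay above the siControl libraries. The log2 fold change was 0.57 ± 0.18 (SE), 1.49-fold, with an edgeR adjusted p of 0.0165. The call was lost in DESeq2's Wald test (adjusted p = 0.111) and without siADNP replicate 2 (0.0902), siControl replicate 1 (0.0578) or siControl replicate 2 (0.0697) in edgeR, in a range of 0.0131 to 0.111 over 16 alternatives.

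TIMP1, the most abundant TIMP here, was not called. Its levels were 101, 96.8 and 106 CPM with siADNP and 93.5, 104 and 96.6 CPM with siControl, and the groups overlapped. The log2 fold change was 0.049 with an interval of -0.066 to 0.16 (95%, from the SE by a normal approximation; adjusted p = 0.572, edgeR). TIMP4, the remaining inhibitor of the family, had 0 reads in all libraries. The membrane-anchored inhibitor RECK was at 6.59 ± 1.43 CPM with siADNP and 4.72 ± 1.87 CPM with siControl (SD, n = 3), a log2 difference of 0.44 that did not pass (adjusted p = 0.133, edgeR).

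ADAM19, a protease known for shedding neuregulins, was at 147, 145 and 137 CPM with siADNP and at 106, 107 and 116 CPM with siControl. The lowest siADNP library was above the highest siControl library. The mean went from 109 ± 5.67 to 143 ± 5.43 CPM (SD, n = 3). The rise was 0.39 ± 0.06 (SE) on the log2 scale, and edgeR gave an adjusted p of 1.01e-06. ADAM15, whose disintegrin domain binds integrins, was at 75.5, 81.1 and 77.3 CPM with siADNP and at 60.5, 62.7 and 61.5 CPM with siControl. These groups were also apart, and the log2 fold change was 0.34 ± 0.06 (SE; adjusted p = 6.15e-05, edgeR). With an offset for transcript GC content the rise of ADAM15 was 0.22 on the log2 scale (adjusted p = 0.00762). In the whole comparison, genes called higher had a median transcript GC content of 54.0% and genes called lower 43.0%, and ADAM15 and MMP15 had 63.9% and 66.0%.

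The 3 other ADAM proteases were not called. ADAM10, the constitutive sheddase of Notch receptors and cadherins, was at 222, 209 and 204 CPM with siADNP and at 192, 204 and 196 CPM with siControl. The groups were separated by a narrow gap, and the log2 difference was 0.10 with a 95% interval of 0.0032 to 0.20 (adjusted p = 0.130, edgeR). With the GC offset ADAM10, whose transcript has 38.3% GC, was called higher, with 0.18 on the log2 scale (adjusted p = 0.00806).

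ADAM17, the main sheddase of TNF and of several EGF receptor ligands, was at 75.4, 79.5 and 75.9 CPM with siADNP and 79.8, 80.8 and 75.7 CPM with siControl. The groups overlapped, and the interval of the log2 difference was -0.15 to 0.085 (adjusted p = 0.717, edgeR). ADAM9, the most abundant ADAM here by reads, was at 330, 345 and 347 CPM with siADNP and 346, 359 and 343 CPM with siControl. Its groups overlapped too, with a 95% interval of -0.13 to 0.058 (adjusted p = 0.624, edgeR). The sign of the small ADAM9, ADAM17 and TIMP1 differences turned with the GC offset.

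Of the membrane-type MMPs, MMP15 passed the threshold narrowly and MMP14 did not pass. MMP15 was at 43.3, 53.8 and 51.7 CPM with siADNP and at 43.4, 41.8 and 44.5 CPM with siControl. Replicate 1 of siADNP lay within the siControl libraries and the other siADNP libraries above them. The log2 fold change was 0.20 ± 0.08 (SE) with an edgeR adjusted p of 0.0462, just inside the threshold. The call was lost in 11 of 16 alternatives, with adjusted p-values of 0.0544 to 0.610 in those 11, among them the GC offset (log2 fold change 0.065, adjusted p = 0.579) and DESeq2's Wald test (0.183). Those 11 included the fits without siADNP replicate 2 (0.265) or 3 (0.133), or without siControl replicate 1 (0.0967), 2 (0.148) or 3 (0.0588).

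MMP14, the main pericellular collagenase, had 40, 45 and 24 reads with siADNP and 41, 32 and 26 reads with siControl. That is 5.14, 5.10 and 3.25 CPM against 4.60, 3.15 and 3.13 CPM, and the groups overlapped. Its log2 difference of 0.32 had a 95% interval of -0.13 to 0.78 (adjusted p = 0.306, edgeR). That interval holds both no change and the 0.39 seen in ADAM19, so a change of that size could not be told from none. MMP2, the gelatinase that MMP14 and TIMP2 activate, had 1 read over all 6 libraries.

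**Figure D2:**
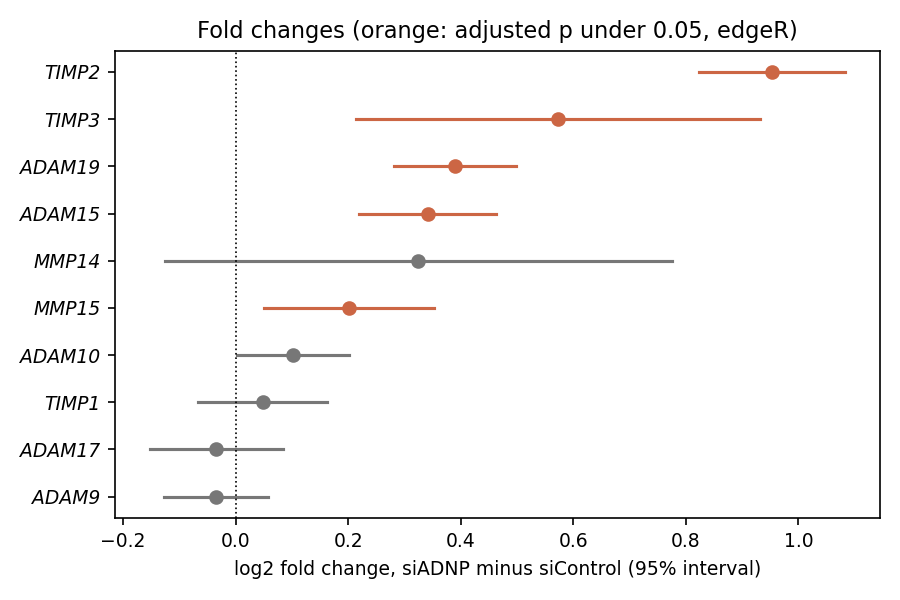
Log2 fold change of each gene, siADNP minus siControl, from edgeR, with its 95% interval by the normal approximation (horizontal line). Orange marks an adjusted p under 0.05. TIMP2 stood highest at 0.95, and the widest intervals belonged to MMP14 and TIMP3, the genes with the fewest reads.

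Inhibitor and protease transcripts were set against each other as ratios of CPM per kb in each library. Such ratios do not measure inhibition, since not every TIMP inhibits every one of the 7 proteases. ADAM9 was the largest term of their sum, at 90.9 CPM per kb with siControl, against 10.2 for MMP15 and 0.972 for MMP14. TIMP2 stood at 0.269, 0.319 and 0.254 of TIMP1 with siADNP and at 0.151, 0.142 and 0.158 with siControl. TIMP2 relative to the sum of the 7 proteases was 0.148, 0.162 and 0.144 with siADNP and 0.0807, 0.0818 and 0.0865 with siControl. Neither ratio overlapped between the groups. TIMP1 relative to the same sum was 0.541 ± 0.0317 with siADNP and 0.552 ± 0.0210 with siControl (SD, n = 3), so the mean difference was smaller than either SD. The ratio of TIMP2 to MMP14 was 18.1, 20.7 and 28.3 with siADNP and 10.5, 16.0 and 16.5 with siControl. It rests on only 24 to 45 MMP14 reads per library. ADAM17 relative to ADAM10 was 0.589, 0.660 and 0.647 with siADNP and 0.721, 0.689 and 0.672 with siControl. ADAM15 relative to ADAM9 was 0.195 ± 0.00536 against 0.150 ± 0.00230 (SD, n = 3). These ratios were not tested, because the genes were chosen with earlier results of these data known.

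**Figure D3:**
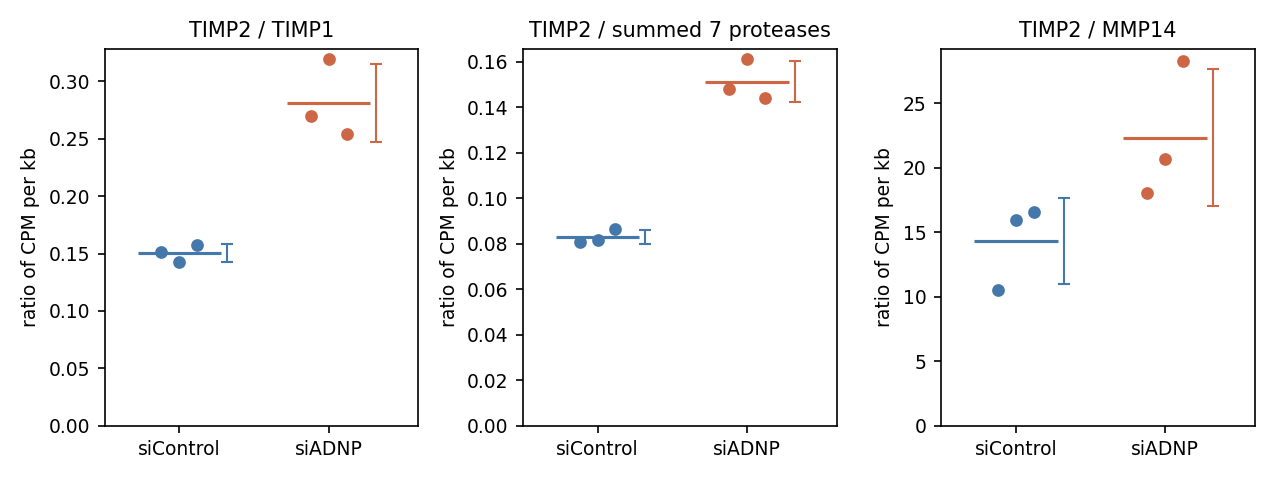
Ratio of TIMP2 to TIMP1, to the 7 proteases summed and to MMP14 (vertical axes, ratio of CPM per kb, from 0) in siControl (blue) and siADNP (orange) libraries. Points are libraries, lines are means and bars are SDs. The TIMP2 to TIMP1 ratio averaged 0.281 with siADNP and 0.150 with siControl.

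The genes whose libraries were most like those of TIMP2 were sought among 10649 genes averaging 5 CPM or more, by the mean absolute difference of their log2 deviations over the 6 libraries. SLC7A2, a cationic amino acid transporter, was closest with a mean difference of 0.0364, at 53.5 ± 2.08 CPM with siADNP and 27.3 ± 0.732 CPM with siControl (SD, n = 3). LAMC3, a laminin chain, followed with 0.0569 and IL6ST, the signalling receptor of IL-6 family cytokines, with 0.0591. Because they were chosen for likeness, their rises are a description.

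Few other members of the protease families were expressed. Of 16 other ADAM genes 4 were testable, and 3 were called higher and 1 lower (14.6% and 13.7% over all tested genes). ADAM22, a catalytically inactive member of synapses, rose from 23.7 ± 3.08 to 29.8 ± 1.20 CPM (SD, n = 3; log2 fold change 0.34, adjusted p = 0.00708, edgeR). ADAM11, another inactive member, rose with 0.66 from a mean under 5 CPM, and ADAM21 fell with -0.60 (adjusted p = 0.0476). ADAM32 was at 2.83, 2.83 and 1.90 CPM with siADNP and 1.57, 0.984 and 1.09 CPM with siControl. It passed the filter, 1.18 CPM in 3 libraries, only through the siADNP libraries, so its call is no support. The other 12 ADAM genes had 0 to 40 reads over the 6 libraries. ADAM8 had the 40, and ADAM12 and ADAM28 were among the 6 at 0.

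Of 21 other MMP genes only MMP11 and MMP17 were testable by the filter, and neither was called (adjusted p = 0.272 and 0.254, edgeR), at log2 differences of 0.39 and 0.33. MMP7, the matrilysin of epithelial tumours, had 55 reads over the 6 libraries and MMP9 had 11, while MMP1, MMP8, MMP10 and MMP12 were at 0. Of 19 ADAMTS genes, secreted relatives with thrombospondin repeats, 9 were testable, 1 was called higher and 1 lower. The shares over all tested genes were 14.6% and 13.7%. ADAMTS15, the one called higher, was at 2.31, 2.49 and 1.36 CPM with siADNP and 1.12, 0.492 and 0.482 CPM with siControl, and it too passed the filter only through the siADNP libraries. ADAMTS6 fell with -0.73 (adjusted p = 0.0445). The median log2 fold change of the 9 was 0.058.

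Of 16 testable genes that mature, traffic or inhibit these proteases, 5 rose, 1 fell and 10 did not pass, with a median log2 fold change of 0.18. Over all tested genes 14.6% were called higher and 13.7% lower. TSPAN14 and TSPAN5, tetraspanins that carry ADAM10 to the cell surface, rose with 0.56 and 0.25. TSPAN14 went from 93.6 ± 4.18 to 138 ± 4.59 CPM (SD, n = 3; adjusted p = 6.83e-10, edgeR). The other testable tetraspanins of that group, TSPAN15, TSPAN17 and TSPAN33, did not pass, with log2 differences of 0.27, 0.023 and 0.27. SNX27, a sorting nexin of endosomal recycling that has been tied to MMP14, rose with 0.49 and PACS2, a sorting protein that affects ADAM17 recycling, with 0.24.

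FRMD8, which stabilizes the iRhom and ADAM17 complex, was the member that fell, from 28.8 ± 3.15 to 23.5 ± 2.10 CPM (SD, n = 3; log2 fold change -0.30, adjusted p = 0.0169, edgeR). The iRhoms RHBDF1 and RHBDF2, which bring ADAM17 to the surface, had log2 differences of -0.12 and 0.12 and did not pass. The proprotein convertase FURIN, which removes the prodomain of ADAMs and membrane-type MMPs, was at 44.4 ± 1.61 and 45.7 ± 1.03 CPM (SD, n = 3; adjusted p = 0.699, edgeR), while PCSK5, another convertase, rose with 0.43. BSG, an inducer of MMPs, was at 171 CPM in both groups.

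Among 27 testable genes whose proteins are known to be shed by ADAM10 or ADAM17, the mRNA of 12 rose, 3 fell and 12 did not pass (median log2 fold change 0.16). Protein and shedding were not measured. Of all tested genes 14.6% were higher and 13.7% lower. The Notch ligand JAG1 rose with 0.66 and the adhesion molecule ALCAM with 0.43, and the EGF receptor ligand EREG and the proteoglycan SDC4 fell with -0.42 and -0.63. L1CAM had the largest rise of the list, with 0.97. EPHB2 rose with 0.59, PTK7 with 0.48, and CD44 and MET with 0.23 each. Of the Notch receptors, NOTCH2 rose with 0.25 and NOTCH3 with 0.39. NOTCH1 was called with 0.22 while its libraries overlapped (adjusted p = 0.0272, edgeR). SDC1 rose with 0.51 and the chemokine CXCL16 with 0.43, and IL6R, the receptor subunit released by shedding, fell with -0.58. Of the ligands TGFA, AREG, HBEGF and BTC, none passed, with log2 differences of -0.071, -0.20, 0.12 and 0.11.

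**Figure D4:**
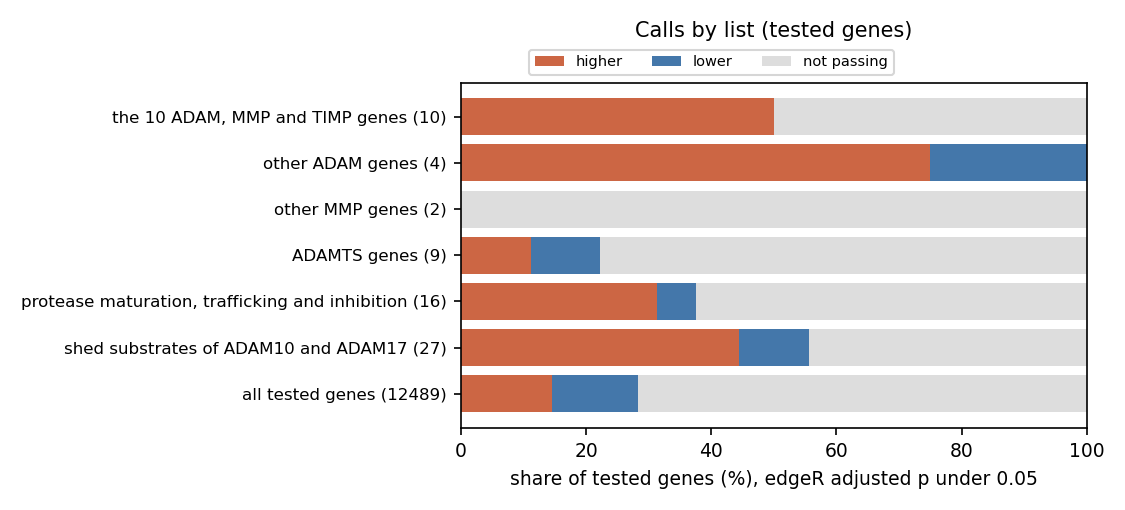
Share of tested genes (horizontal axis, %) that were higher (orange), lower (blue) or not passing (grey) at an edgeR adjusted p under 0.05, for the 10 genes, for each list of related genes and for all 12489 tested genes, with the number tested in brackets. Of the 27 genes of shed proteins 12 were higher and 3 lower in mRNA, against 14.6% and 13.7% of all tested genes. The 10 genes and the lists were chosen with earlier results of these data known, so the shares are a description.

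Some members share exons with other genes in GENCODE, and whether reads were counted by strand is not given in the sources used here. Of the exonic bases of ADAM17, 12.31% lie opposite exons of IAH1, which had 13.7 ± 1.67 CPM with siADNP and 12.3 ± 1.05 CPM with siControl (SD, n = 3). Of those of TIMP2, 6.52% lie opposite an antisense RNA, AC022966.1, and 3.52% overlap CEP295NL, and no level of either is given here. For ADAM19, 0.80% lie opposite exons of CYFIP2, which had 124 ± 9.11 CPM with siADNP and 120 ± 5.64 CPM with siControl (SD, n = 3). For ADAM10, 0.84% lie opposite an antisense RNA, AC018904.1. For ADAM15, 4.65% overlap DCST1, which had 0 to 4 reads per library. ADAM9, MMP14, MMP15, TIMP1 and TIMP3 shared no exonic base with another gene.

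**Figure D5:**
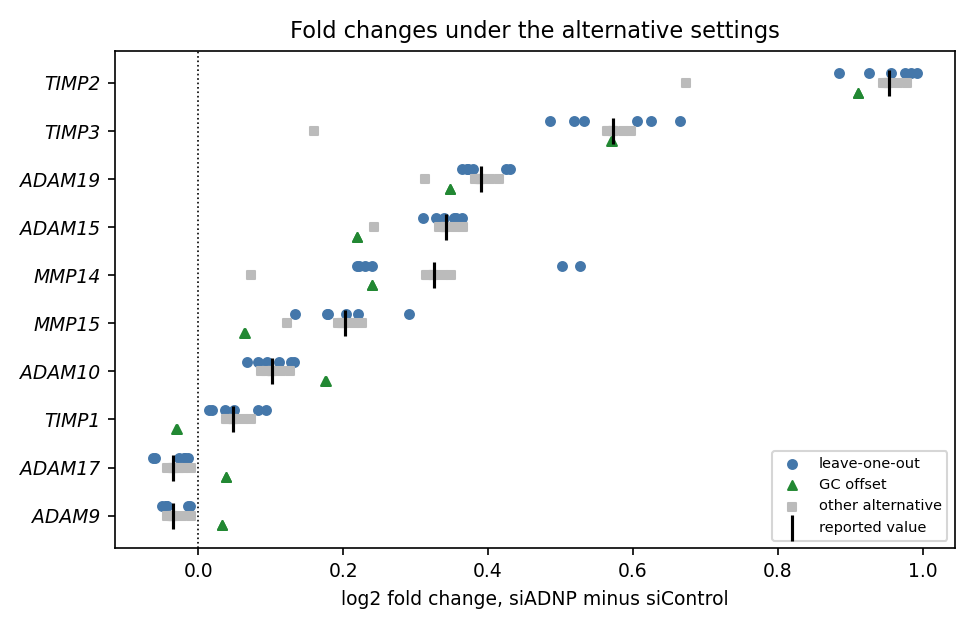
Log2 fold change of each gene (siADNP minus siControl, horizontal axis) as reported (black bars), with each library left out (blue circles), with the GC offset with and without the replicate block (green triangles) and under the other alternatives (grey squares). TIMP2 ranged from 0.67 to 0.99, and its lowest value came from the authors' deposited log2 values, where the scarce TIMP3 and MMP14 also had their lowest, 0.16 and 0.073. Differences on that scale are not edgeR log2 fold changes, and ADNP was at -1.23 on it against -1.61 in edgeR.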

How the data were processed

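The counts are raw reads per gene symbol as deposited by the authors. Per the submitters' processing notes, STAR, HTSeq and DESeq2 were used with the hg19 build, with no versions, and the gene annotation is not given in the sources used here. Per the labels' protocols, libraries came from total RNA with a Nugen kit. The second deposited table holds log2-scale values of the authors and served 1 alternative test. Summary lines without a gene name were not used. The no-feature line took 54.4% to 55.7% of reads with siADNP and 53.5% to 54.3% with siControl, and genes took 26.4% to 27.2% and 27.7% to 28.3%, shares that did not overlap between the groups and whose part in the results was not tested.

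All genes were fitted with edgeR 4.0.16 in R 4.3.3 (TMM, filterByExpr with a minimum count of 10, glmQLFit, glmQLFTest, two-sided, Benjamini-Hochberg). The code was run on counts simulated from that same model, which checks the code and not whether these samples follow the model. An SE is the estimate over the root of its F statistic. Alternatives used DESeq2 1.42.0, limma 3.58.1, other scalings and filters, each library left out, the replicate number as a block and an offset for GC content, which was known for 90.0% of tested genes (GENCODE, longest transcript, newer build). Figures used matplotlib 3.10.9. The 10 genes and the lists were chosen with earlier results of these data known. Named are the 10 genes, ADNP, tested members of the ADAM, MMP and ADAMTS families, up to 4 genes with the smallest p of each other list and the 3 genes most like TIMP2. Further list genes were named after their values were seen. No 2 libraries agreed within sampling noise (chi-square per degree of freedom 1.81 to 3.06 within groups, 6.68 to 8.66 between groups).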

Additional observations from a re-analysis of the deposited data

How the results depend on the processing

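TIMP2, ADAM19 and ADAM15 stayed called and higher in all 16 alternatives, with log2 differences of 0.67 to 0.99, 0.31 to 0.43 and 0.22 to 0.37. The lowest values of TIMP2 and ADAM19 came from the authors' deposited log2-scale values. Differences on that scale are not edgeR log2 fold changes, and ADNP was at -1.23 on it against -1.61 in edgeR. The number of the 10 genes called higher was 3 in DESeq2's Wald test and 3 to 5 on leaving out 1 library, with 3 without siADNP replicate 2, siControl replicate 1 or siControl replicate 2, and none was called lower in any alternative. DESeq2's Wald test called 1106 of all genes higher and 1079 lower, against 1824 and 1714 in edgeR. With the GC offset, the uncalled differences turned sign, to 0.0333 for ADAM9, 0.0378 for ADAM17 and -0.0298 for TIMP1, and to 0.0333, 0.0381 and -0.0292 when the replicate block was added. No pairing of same-numbered libraries was seen, since their deviations from the group means correlated with r = 0.0238, -0.0352 and -0.0290, and with the replicate block alone 4 of the 10 genes were called higher, 1694 of all genes higher and 1542 lower. MMP14 and TIMP3, with counts of 24 to 69 reads per library, had the largest SEs of the 10 genes, 0.23 and 0.18.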
